A study of Mus musculus with 20 samples.

Results

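The 10 genes described here handle iron in the liver or report on it. They are Fth1 and Ftl1 (the ferritin heavy and light chains), Tfrc and Tfr2 (transferrin receptors 1 and 2), Slc40a1 (ferroportin), Slc11a2 (DMT1), Aco1 and Ireb2 (iron regulatory proteins 1 and 2), Hamp (hepcidin) and Trf (transferrin). They were taken by symbol from a table of 53028 Ensembl genes, all 10 were found, and all 10 passed the filter on low counts in every comparison.

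The libraries came from the livers of male C57BL/6J mice on chow, killed 2 days after the last of 3 intraperitoneal injections of a locked nucleic acid (LNA) antisense oligonucleotide at 3 mg/kg. The control LNA was directed against GFP (mice 1, 2, 3, 8 and 9) and the other against the small nucleolar RNA SNORA73 (mice 4, 6, 10, 11 and 12), which the sample labels spell Snora37. The study's methods give an age of 8 weeks for injected mice and of 10 weeks for liver polysomes, and which of these holds here was not settled. For liver polysomes, those methods also describe the drug cycloheximide, given by tail vein shortly before the mice were killed. Each mouse gave 1 library of total RNA (called input in the labels) and 1 of RNA from polysome fractions, so that 20 libraries from 10 mice were compared, with 5 mice per LNA group.

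Iron inside cells is sensed in part by the 2 iron regulatory proteins, which bind a stem-loop called the iron-responsive element (IRE) when iron is scarce. Binding to an IRE in the 5′ leader, as in the mRNAs of both ferritin chains and of ferroportin, blocks the start of translation, whereas binding to IREs in the 3′ end, as in the mRNA of transferrin receptor 1, protects the mRNA from decay. Iron in the body is set by hepcidin, a hormone that hepatocytes secrete and that removes ferroportin from cell surfaces. Its gene is switched on by BMP and SMAD signalling when iron is plentiful and by STAT3 in inflammation.

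In the RefSeq annotation of GRCm38.p6, Hamp lies at chr7:30942368-30944029 and its close copy Hamp2 at chr7:30922372-30924181, both on the minus strand. Of the other genes, Ftl1 lies at chr7:45457944-45459886, Fth1 at chr19:9980600-9985111, Slc40a1 at chr1:45908070-45926532, Trf at chr9:103208876-103230286, Ireb2 at chr9:54862658-54912534, Tfrc at chr16:32608896-32632794, Tfr2 at chr5:137569822-137588081, Slc11a2 at chr15:100387898-100424209 and Aco1 at chr4:40143265-40199009. The stretch from 120 to 61 bases before the start of Hamp (chr7:30944090-30944149, minus strand) is shown with the matching stretch of Hamp2 (chr7:30924242-30924301, minus strand). Whether these sequences bear on the levels of the 2 mRNAs was not tested. Capitals mark GGCGCC, the core of a BMP response element, and TTCTTGGAA, a match to the STAT motif TTCNNGGAA.
Hamp: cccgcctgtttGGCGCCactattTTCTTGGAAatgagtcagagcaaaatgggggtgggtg
Hamp2: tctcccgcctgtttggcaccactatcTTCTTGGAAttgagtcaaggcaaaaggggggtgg
Lined up at the STAT motif without gaps, 51 of 57 bases were identical. Within the 6 bases of GGCGCC, the copy in Hamp2 differed by G4A, counted from 1 at the 5′ end of the motif in Hamp. Over the 250 bases before the start, read on both strands, GGCGCC was found in 9.59% and TTCNNGGAA in 4.06% of 32851 RefSeq windows, which hold 7 of the 10 genes. Of these 7, GGCGCC was found in Hamp and Tfrc and TTCNNGGAA in Hamp. These are matches of letters, not measured binding sites.

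Depth was 20005389 to 42023390 counts per library in total RNA and 14852951 to 33824659 in polysome RNA. The knockdown could not be checked here, because Snora73a and Snora73b had 0 to 4 counts in every library. In total RNA, the library of mouse 10 (SNORA73 LNA) had the lowest mean correlation with its group (0.972, against 0.979 to 0.988 in the other 9 mice), and that of mouse 9 the lowest among GFP LNA mice (0.979). Hepatocyte markers (Alb, Ttr, Apoa1, Cps1, Cyp2e1) summed to 36761 to 61316 CPM (counts scaled to a fixed library size) in total RNA, none of them at 0. Because these are bulk samples, fewer cells of a type and less RNA per cell cannot be told apart. CPM values below are scaled by TMM (trimmed mean of M values) within total or polysome RNA, unless a ratio between the 2 RNAs is given.

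The first comparison asked whether the SNORA73 LNA changed these genes in total or polysome RNA of the liver. With all 10 mice, 0 of 10 genes passed an FDR of 0.05 in either RNA (edgeR quasi-likelihood test, Benjamini-Hochberg over all genes tested). Ferroportin and the ferritin light chain were lower with the SNORA73 LNA in most mice, but neither passed the correction. Very few genes of any kind were called by edgeR, 0.0303% of 13195 tested in total RNA, and 0.0153% of 13060 tested in polysome RNA. At an unadjusted p under 0.05 there was 1 of the 10 genes in total RNA and 2 in polysome RNA, against 1141 and 1755 of all genes. limma-voom and DESeq2 also called 0 of the 10 in both RNAs. Among all genes, limma-voom called 5 higher and 0 lower in total RNA and 2 and 0 in polysome RNA. DESeq2 called more, 49 higher and 26 lower in total RNA and 231 and 50 in polysome RNA. The median log2 fold change of the 10 genes was -0.01 in total and -0.08 in polysome RNA, and that of all genes tested 0.01 and -0.01. None of the 10 had LNA groups that did not overlap in CPM, in either RNA, while 1.8% of all genes did in total RNA and 3.2% in polysome RNA.

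**Figure D1:**
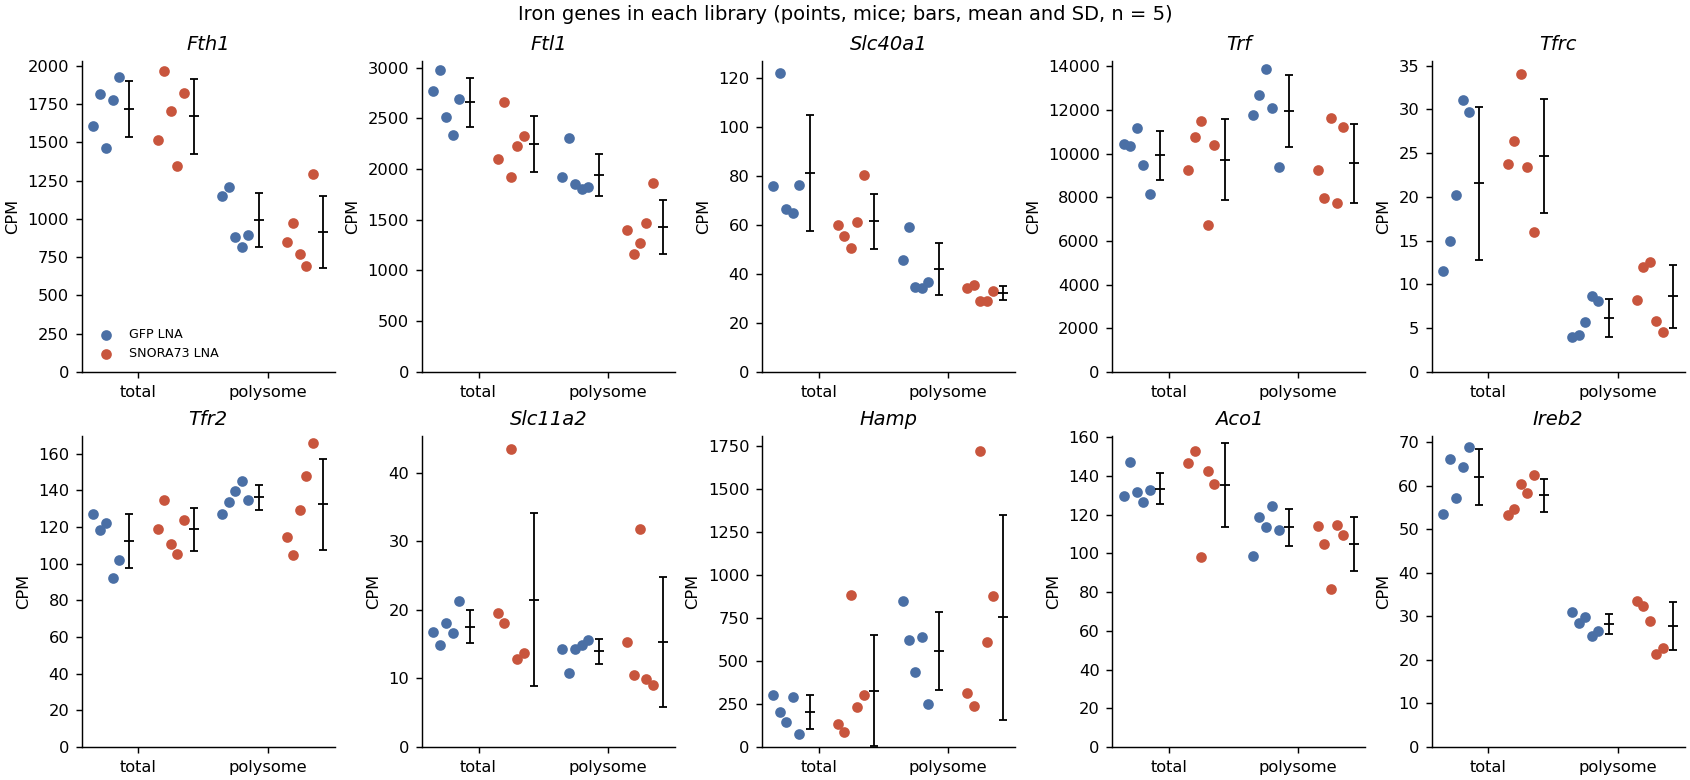
CPM (vertical axes, linear, from 0) of each of the 10 iron genes in total and polysome RNA. Points are mice (blue, GFP LNA; red, SNORA73 LNA), and the bars give the mean and SD of 5 mice. The LNA groups overlap in every panel, and 1 SNORA73 LNA mouse stands far above the rest for Hamp (884 CPM in total RNA) and Slc11a2 (43.5 CPM).

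Ftl1, the light chain that helps iron settle in the ferritin shell, was at 2767, 2974, 2515, 2338 and 2694 CPM in total RNA of GFP LNA mice 1, 2, 3, 8 and 9. It was at 2103, 2658, 1919, 2224 and 2321 CPM in SNORA73 LNA mice 4, 6, 10, 11 and 12. The SNORA73 LNA group was thus lower on average but overlapped with the control group (log2 fold change -0.24 ± 0.11 SE, n = 5 and 5, edgeR FDR = 0.579). In polysome RNA, Ftl1 was at 1925, 2303, 1856, 1806 and 1822 CPM in the GFP LNA mice. It was at 1395, 1162, 1267, 1470 and 1859 CPM in the SNORA73 LNA mice. Only SNORA73 LNA mouse 12 reached into the control range there, and the other 4 lay below all controls. The log2 fold change was -0.44 ± 0.15 SE, with a 95% interval of -0.76 to -0.12 (edgeR unadjusted p = 0.0107, FDR = 0.243). Its FDR was 0.219 by limma-voom, 0.0978 by DESeq2 and 0.0656 in a single edgeR fit of all 20 libraries. Under library totals without TMM, which moved the median of all genes to -0.14 in total and -0.17 in polysome RNA, the value for Ftl1 was -0.38 in total and -0.61 in polysome RNA.

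Fth1, the heavy chain that oxidizes iron for storage, showed no such shift. It ranged from 1461 to 1925 CPM in total RNA of GFP LNA mice and from 1343 to 1966 CPM of SNORA73 LNA mice. In polysome RNA it ranged from 817 to 1209 CPM and from 693 to 1291 CPM. The log2 fold changes were -0.04 ± 0.12 and -0.11 ± 0.18 SE in total and polysome RNA (edgeR FDR = 0.959 and 0.828), with 95% intervals of -0.31 to 0.23 and -0.51 to 0.28. The difference between the 2 ferritin chains was not tested.

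Slc40a1, the only known exporter of iron from cells, was at 76.1, 122, 66.6, 64.8 and 76.2 CPM in total RNA of GFP LNA mice 1, 2, 3, 8 and 9. It was at 60.1, 55.4, 50.4, 61.2 and 80.3 CPM in SNORA73 LNA mice 4, 6, 10, 11 and 12. In both RNAs, 4 of 5 SNORA73 LNA mice were below the lowest control mouse. In polysome RNA, mouse 4 was so only barely, at 34.14 CPM against 34.23 CPM in control mouse 8. On the scale shared by all 20 libraries, mouse 4 (33.67 CPM) was above control mouse 3 (33.56 CPM). The log2 fold change was -0.40 ± 0.18 SE in total RNA (edgeR unadjusted p = 0.0467, FDR = 0.563) and -0.39 ± 0.16 in polysome RNA (unadjusted p = 0.0301, FDR = 0.317). GFP LNA mouse 2 was the highest in both RNAs, and without it these values were -0.21 and -0.23. Ferroportin is abundant in Kupffer cells, whose markers (Clec4f, Vsig4, Adgre1, Timd4, Marco, Cd68) summed to 79.9 to 127 CPM in total RNA of GFP LNA mice and to 74.7 to 139.7 CPM of SNORA73 LNA mice. Markers of sinusoidal endothelium (Stab2, Clec4g, Lyve1, Kdr, Oit3) summed to 70.5 to 80.9 CPM in polysome RNA of GFP LNA mice and to 87.0 to 98.5 CPM of SNORA73 LNA mice, and in total RNA to 81.5 to 101 and 93.4 to 111 CPM. Of these 5 endothelial markers, edgeR called 1 higher in total RNA and 0 in polysome RNA, against 4 and 2 of all genes. The part of both cell types in the values of Slc40a1 was not tested.

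Of the genes for iron uptake, Tfrc, the receptor that takes up iron-loaded transferrin, was low in this tissue. It was at 11.6, 15.0, 20.2, 31.1 and 29.8 CPM in total RNA of GFP LNA mice 1, 2, 3, 8 and 9 and at 23.8, 26.4, 34.0, 23.4 and 15.97 CPM in SNORA73 LNA mice 4, 6, 10, 11 and 12. The log2 fold change of 0.20 ± 0.27 SE was not called (edgeR FDR = 0.885), and it ranged from 0.0376 to 0.36 when 1 mouse at a time was left out. In polysome RNA the value was 0.50 ± 0.31 SE (FDR = 0.516). Tfr2, the receptor that hepatocytes use to sense loaded transferrin, was at 91.9 to 127 CPM in total RNA of GFP LNA mice and at 105 to 135 CPM of SNORA73 LNA mice (log2 fold change 0.08 ± 0.11 SE, FDR = 0.893). In polysome RNA its value was -0.04 ± 0.14 SE (FDR = 0.930).

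Trf, the plasma carrier of iron that hepatocytes secrete, was at 8163 to 11156 CPM in total RNA of GFP LNA mice and at 6752 to 11483 CPM of SNORA73 LNA mice (log2 fold change -0.03 ± 0.15 SE, edgeR FDR = 0.981). In polysome RNA it was at 11749, 12670.2, 13884, 12076 and 9367 CPM in GFP LNA mice 1, 2, 3, 8 and 9 and at 9255, 7959, 11615, 7730.2 and 11201 CPM in SNORA73 LNA mice 4, 6, 10, 11 and 12. These groups overlapped through control mouse 9 (log2 fold change -0.32 ± 0.16 SE, FDR = 0.407). Once mice 9 and 10 were left out, the value was -0.47 ± 0.16 SE (FDR = 0.237).

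The mRNAs of both iron regulatory proteins gave small differences. Aco1, a cytosolic aconitase that turns into an RNA-binding protein when it loses its iron-sulfur cluster, was at 127 to 147 CPM in total RNA of GFP LNA mice and at 97.9 to 153 CPM of SNORA73 LNA mice, the lowest being mouse 10. Ireb2, which is degraded when iron is plentiful, was at 53.5 to 69.0 and at 53.2 to 62.45 CPM. Their log2 fold changes were 0.02 ± 0.12 and -0.10 ± 0.09 SE in total RNA and -0.12 ± 0.13 and -0.03 ± 0.14 in polysome RNA (edgeR FDR from 0.742 to 0.991). The 95% interval for Ireb2 in total RNA was -0.31 to 0.11, the narrowest of the 10 genes.

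**Figure D2:**
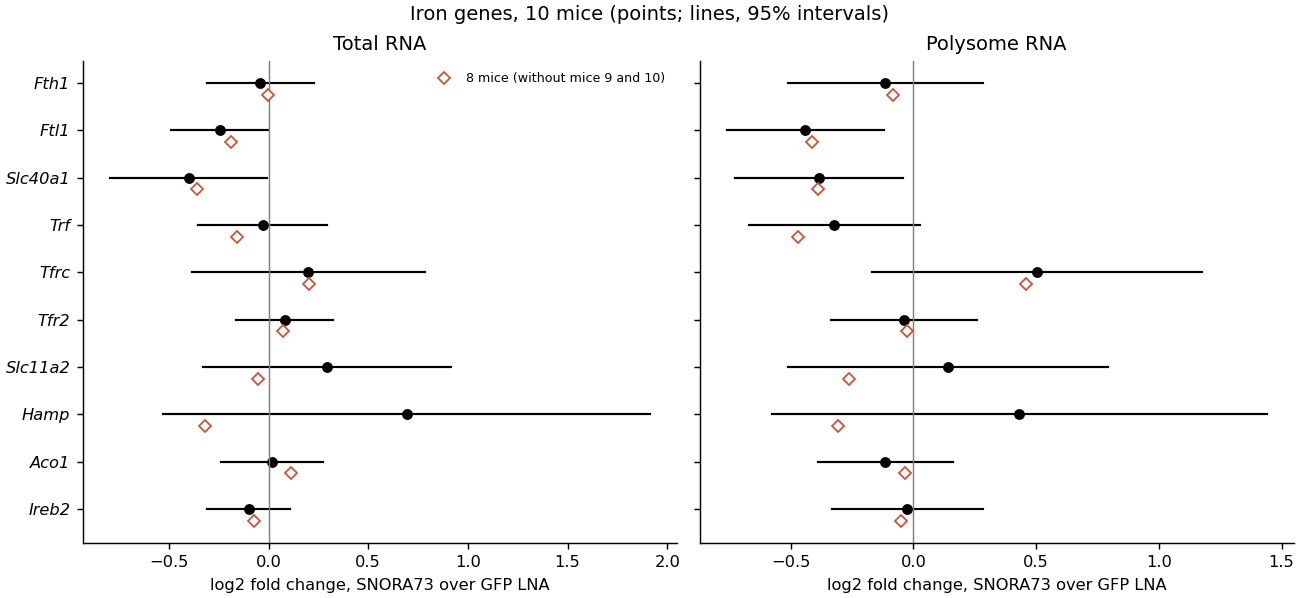
Log2 fold change of SNORA73 over GFP LNA (horizontal axes) for the 10 genes in total and polysome RNA. Filled points and lines are edgeR values with 95% intervals from 10 mice, and open diamonds are values from 8 mice, with mice 9 and 10 left out. Hamp and Slc11a2 change sign between the 2 sets of mice, from 0.69 to -0.32 and from 0.29 to -0.05 in total RNA.

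Hamp, the hepcidin mRNA, spread widely between mice. In total RNA it was at 303, 201, 143, 290.2 and 74.1 CPM in GFP LNA mice 1, 2, 3, 8 and 9. It was at 136, 84.45, 884, 231 and 299.9 CPM in SNORA73 LNA mice 4, 6, 10, 11 and 12. Mouse 10 stood far above the rest, and mouse 9 was the lowest of all. In polysome RNA the same mouse had 1724 CPM, against 240.0 to 879 CPM in the other 9 mice. The log2 fold change was 0.69 ± 0.56 SE in total RNA with a 95% interval of -0.53 to 1.91 (edgeR FDR = 0.794) and 0.43 ± 0.47 in polysome RNA (FDR = 0.736). Its direction rested on mouse 10, since without that mouse the values were -0.11 and -0.12, and without mice 9 and 10 they were -0.32 and -0.31.

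Slc11a2, which moves ferrous iron out of endosomes, followed the same mouse. In total RNA it was at 14.9 to 21.3 CPM in the 5 GFP LNA mice. It was at 19.5, 18.1, 43.5, 12.8 and 13.7 CPM in SNORA73 LNA mice 4, 6, 10, 11 and 12. Outside mouse 10, all 9 mice lay between 12.8 and 21.3 CPM. The log2 fold change was 0.29 ± 0.29 SE in total RNA (edgeR FDR = 0.83) and 0.14 ± 0.30 in polysome RNA (FDR = 0.878), and without mouse 10 the values were -0.13 and -0.31.

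Mouse 10 also stood apart in acute-phase mRNAs, which inflammation raises in hepatocytes. The list of Saa1, Saa2, Orm1, Orm2, Lcn2, Hp and Fgb summed to 37858 CPM in its total RNA, against 5384 to 7831 CPM in the other 9 mice. Saa1, an apolipoprotein of the acute phase, was at 7705 CPM in mouse 10 and at 21.3 to 292 CPM in the others, and Lcn2, which binds bacterial iron carriers, was at 558 CPM and at 1.5 to 10.6 CPM. Genes of iron and heme handling that were high in the same mouse included Steap4, a metalloreductase (1111 CPM against 39.8 to 133), Cp, the ferroxidase ceruloplasmin (1683 against 567.9 to 789), Hp, which binds free hemoglobin (8999 against 1841 to 3508), and Hpx, which binds free heme (6401 against 1771 to 2668). These 4 were picked from 15 genes for iron transport and 7 for heme scavenging after their values had been seen. How many other genes of these lists, or of all genes, were high in mouse 10 was not counted. Hp is also among the 7 acute-phase genes summed above. In the LNA comparison with all mice, 0 of the 7 acute-phase genes were called by edgeR, with 5 in total and 6 in polysome RNA at an unadjusted p under 0.05 and medians of 3.30 and 3.49 (log2). With mice 9 and 10 left out, 0 were called, 4 in each RNA were at an unadjusted p under 0.05, and the medians were 0.69 and 1.02. Among all genes, 1141 of 13195 in total and 1755 of 13060 in polysome RNA were at that p with all mice. Without mice 9 and 10, the counts were 1574 of 13017 and 1794 of 12825. The part of the acute-phase state in the values of Hamp and Slc11a2 was not tested.

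Hamp2 did not follow Hamp. It was at 2.9 CPM in total RNA of mouse 10, the lowest of the 10 mice, and at 4.4 to 21.1 CPM in the others. The mice with the lowest Hamp, 9 and 6, had 17.7 and 21.1 CPM of Hamp2. Hamp2 counts came to 0.33% to 29.7% of Hamp counts across the 20 libraries. Because the 2 mRNAs are near-identical, the split of reads between them is uncertain. Of the ferritin pseudogenes, Ftl1-ps1 had counts of 0.834% to 3.91% of those of Ftl1, and the other 4 had at most 0.0208% of their parent gene.

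**Figure D3:**
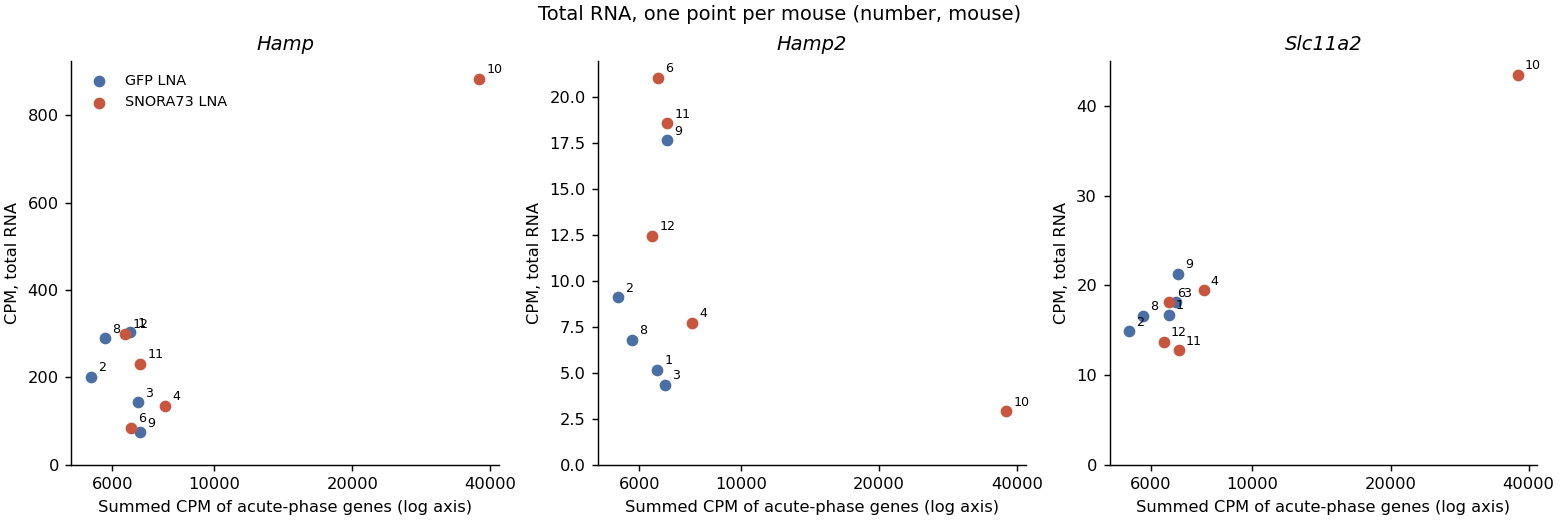
CPM of Hamp, Hamp2 and Slc11a2 in total RNA (vertical axes, linear, from 0) against the summed CPM of 7 acute-phase genes (horizontal axes, log scale), with each point a mouse and its number beside it. Mouse 10 lies alone at 37858 CPM of acute-phase mRNA with the highest Hamp and Slc11a2 and the lowest Hamp2.

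Over the 10 mice in total RNA, 4 relations were examined, and none passed. Hamp against the mean of 6 BMP target genes (Id1, Id2, Id3, Smad6, Smad7, Atoh8) gave Pearson's r = 0.53 (permutation p = 0.119, adjusted 0.332) and Spearman's rho = 0.49 (permutation p = 0.155, adjusted 0.498). Without the 2 mice farthest from the median of the BMP targets, r was 0.41. Hamp against the mean of the acute-phase genes gave r = 0.57 (permutation p = 0.166, adjusted 0.332) and rho = -0.05 (permutation p = 0.895, adjusted 0.895). It rested on mouse 10, as r was -0.62 without mice 10 and 11. Fth1 against Ftl1 gave r = 0.38 (permutation p = 0.277, adjusted 0.369) and rho = 0.41 (permutation p = 0.249, adjusted 0.498), and r = 0.49 without mice 10 and 2. Tfrc against Hamp gave r = -0.03 (permutation p = 0.917, adjusted 0.917) and rho = -0.13 (permutation p = 0.735, adjusted 0.895), and r = -0.41 without mice 10 and 9.

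The second comparison asked how strongly each mRNA was represented in polysomes relative to total RNA of the same livers. Of the 10 genes, 6 were lower in polysome RNA (Tfrc, Ireb2, Slc40a1, Fth1, Ftl1 and Aco1), and 1, Hamp, was higher (edgeR over 20 libraries, FDR under 0.05). Among all 13795 genes tested, 26.9% were lower and 28.5% higher. The median log2 fold change of the 10 genes was -0.51, and that of all genes 0.02. The 7 genes were also called by limma-voom and DESeq2, and in all fits that left out 1 mouse. These values are relative to the average mRNA in each fraction, so they give no absolute amount on polysomes.

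The 2 mRNAs at the extremes were Tfrc and Hamp. The polysome to total ratio of Tfrc was 0.339, 0.270, 0.267, 0.271 and 0.271 in GFP LNA mice 1, 2, 3, 8 and 9 and 0.336, 0.450, 0.365, 0.242 and 0.273 in SNORA73 LNA mice 4, 6, 10, 11 and 12. All 10 mice were below 1, as were 19.2% of all genes, and the log2 fold change was -1.69 ± 0.22 SE (edgeR FDR = 1.66e-06). Hamp had ratios of 2.77, 2.98, 2.89, 2.14 and 3.36 in the GFP LNA mice and 2.27, 2.81, 1.92, 2.56 and 2.81 in the SNORA73 LNA mice. All 10 mice were above 1, as was found for 19.9% of all genes. Mouse 10, the highest for Hamp in both RNAs, had the lowest ratio (log2 fold change 1.30 ± 0.40 SE, FDR = 0.00972).

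The 3 members with an IRE in the 5′ leader were lower in polysome RNA. The ratio of Fth1 was 0.446 to 0.707 over the 10 mice (log2 fold change -0.87 ± 0.11 SE, edgeR FDR = 1.44e-06), that of Ftl1 0.432 to 0.769 (-0.59 ± 0.09 SE, FDR = 8.36e-06) and that of Slc40a1 0.397 to 0.633 (-0.98 ± 0.13 SE, FDR = 1.55e-06). Each was below 1 in 10 of 10 mice, as was found for 19.2% of all genes. Of the 6 genes with a 5′ IRE, 4 were lower and 0 higher, the fourth being Epas1 (-0.35 ± 0.13 SE). Among all 13795 genes in this fit, 26.9% were lower and 28.5% higher. Of the 4 genes listed with a 3′ IRE, 3 were lower and 0 higher, namely Tfrc, Cdc14a (-1.14 ± 0.30 SE) and Cdc42bpa (-0.27 ± 0.08 SE). In polysome RNA alone, 3 of the 4 passed the filter on low counts, and Cdc14a did not. Cdc14a entered this fit through total RNA, where it was higher, so the filter itself favoured its lower value. The medians of the 2 lists were -0.47 and -0.79. With the mouse as a block, 4 of the 6 were lower and 1, Alas2, was higher, and 4 of the 4 were lower. Among all 13795 genes, 4576 were higher and 4466 lower in that fit.

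Slc11a2, of which some transcripts carry a 3′ IRE, had ratios of 0.570 to 0.866 and was below 1 in all 10 mice. It did not pass the test (log2 fold change -0.44 ± 0.23 SE, edgeR FDR = 0.103). With the mouse as a block, which pairs the 2 libraries of a mouse, it was lower (-0.46 ± 0.06 SE, FDR = 7.55e-06), and likewise without mouse 10 alone (-0.48, FDR = 0.00175). Counts were per gene, so transcripts with and without the IRE could not be told apart.

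All 3 genes listed for iron regulatory proteins were lower in polysome RNA, as were 26.9% of all 13795 genes tested. Ireb2 had ratios of 0.350 to 0.618 (log2 fold change -1.13 ± 0.09 SE, edgeR FDR = 1.16e-09) and Aco1 of 0.677 to 0.955 (-0.34 ± 0.08 SE, FDR = 0.00185). Fbxl5, which marks iron regulatory protein 2 for degradation, was at -0.93 ± 0.12 SE. The mRNA of Ireb2 was thus further below its total level than that of Aco1, with ratios that did not overlap between the 2 genes.

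The secreted carrier and the hepatocyte receptor were near the average mRNA. Trf had ratios of 0.732 to 1.23 (log2 fold change 0.08 ± 0.11 SE, edgeR FDR = 0.518) and Tfr2 of 0.768 to 1.53 (0.18 ± 0.09 SE, FDR = 0.079), neither called. Tfr2 passed under library totals without TMM (0.21, FDR = 0.0433) and without SNORA73 LNA mouse 6 (0.24, FDR = 0.0201).

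**Figure D4:**
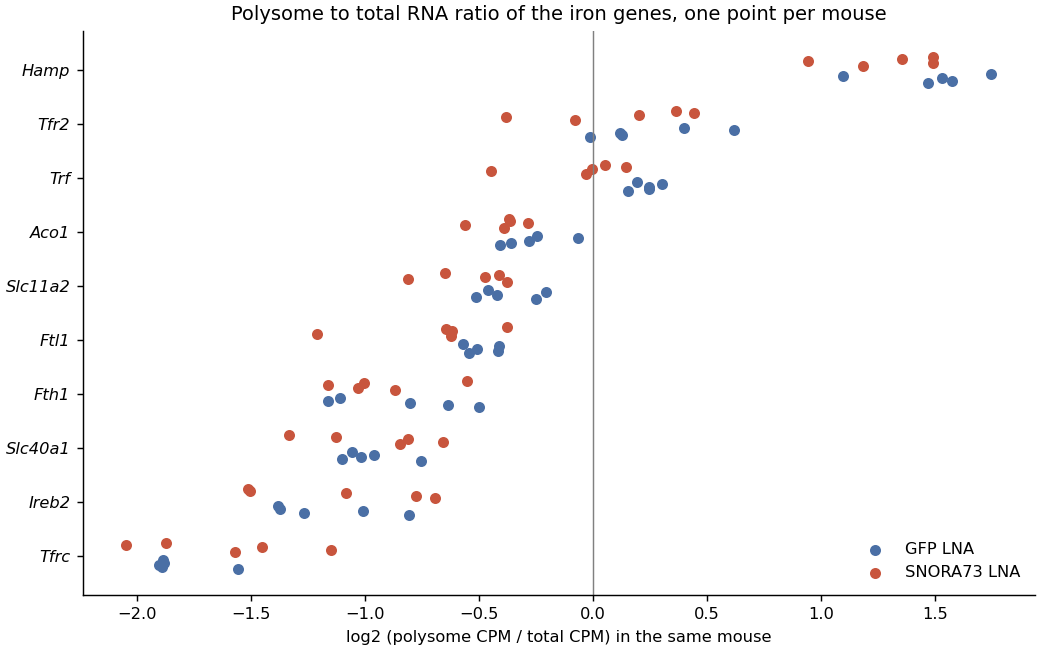
Log2 of the polysome to total CPM ratio in the same mouse (horizontal axis) for the 10 genes, ordered by their median, with blue points for GFP LNA and red points for SNORA73 LNA mice. Hamp lies above 0 in all 10 mice, 7 genes lie below 0 in all 10 mice, and Trf and Tfr2 straddle 0.

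Of 71 further genes on the iron lists, 70 were tested, of which 24 were higher in polysome RNA, 23 lower and 23 not called. Of all 13795 genes in that fit, 28.5% were higher and 26.9% lower. With the mouse as a block, 30 were higher and 30 lower, against 4576 and 4466 of all 13795 genes. Differences between the lists were not tested. Of 16 genes for hepcidin and its control, 7 were lower and 4 higher. The lower ones included the BMP receptors Acvr2a (log2 fold change -2.01 ± 0.21 SE), Acvr1 (-1.53 ± 0.16), Bmpr2 (-1.16 ± 0.11) and Bmpr1a (-1.10 ± 0.14), and the higher ones Hamp2 (1.75 ± 0.40 SE) beside Hamp. Of 12 genes for iron-sulfur cluster assembly, 9 were higher and 2 lower. Glrx5, a glutaredoxin that passes clusters on (1.04 ± 0.12 SE), was among the higher ones.

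The counts that follow stand beside 26.9% lower and 28.5% higher among all 13795 genes in the fit without a block. Of 5 genes tested for iron storage and its chaperones, 4 were lower and 0 higher. They were both ferritin chains, Ncoa4, the receptor that sends ferritin to lysosomes (-1.58 ± 0.10 SE), and Pcbp2, which brings iron to ferritin (-0.34 ± 0.08 SE). Of 4 genes for heme breakdown, 3 were higher and 0 lower, and of 8 for heme synthesis, 5 were higher and 2 lower. Of 7 for heme scavenging and transport, 1 was higher and 1 lower, the latter being the heme exporter Flvcr1 (-1.26 ± 0.22 SE). Of 15 genes for iron transport, 2 were higher and 5 lower, and of 6 BMP targets, 1 was higher and 2 lower. The block, which pairs the libraries of a mouse, gave 4576 higher and 4466 lower among all 13795 genes. It added Pcbp1 as higher to the storage list (0.14 ± 0.05 SE). It gave 4 higher and 2 lower for heme scavenging and transport, 2 higher and 9 lower for iron transport, 4 higher and 9 lower for hepcidin control, 3 higher and 1 lower for heme breakdown, and 2 of each for BMP targets. Alas2, Epas1, Cdc42bpa, Pcbp1 and Pcbp2 were named after their values had been seen. In the LNA comparison, 0 of the 70 genes tested in total RNA and 0 of the 69 tested in polysome RNA were called by edgeR (6 and 9 at an unadjusted p under 0.05, against 1141 of 13195 and 1755 of 13060 among all genes). With mice 9 and 10 left out, 2 were higher in total RNA and 1 in polysome RNA. Among all genes in those fits, 76 of 13017 were higher and 21 lower in total RNA, and 27 of 12825 and 4 in polysome RNA. The genes below were named after their values had been seen, and neither was called with all 10 mice. Smad4, the shared partner of the BMP-activated SMADs, was higher in both (log2 fold change 0.91 ± 0.12 SE in total RNA, edgeR FDR = 0.00728, and 1.22 ± 0.20 in polysome RNA, FDR = 0.0402). Lyrm4, a factor of iron-sulfur cluster assembly, was higher in total RNA (0.63 ± 0.11 SE, FDR = 0.0267).

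**Figure D5:**
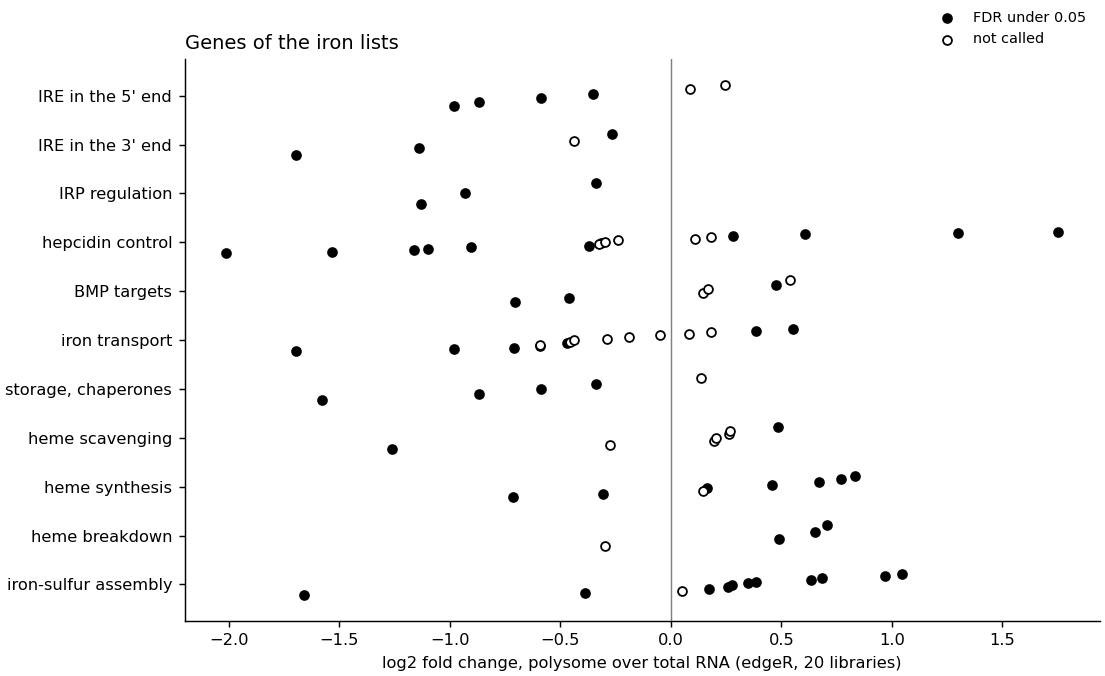
Log2 fold change of polysome over total RNA (horizontal axis) for each gene of the 11 iron lists, with filled points for an edgeR FDR under 0.05 and open points for genes not called. A gene on several lists is drawn in each. In this fit without a block, called genes for iron storage and for iron regulatory proteins all lie below 0, and 9 of 11 called genes for iron-sulfur assembly lie above 0. Of all 13795 genes in it, 26.9% were lower and 28.5% higher.

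The third comparison asked whether the SNORA73 LNA changed the polysome to total ratio. In the interaction test, 0 of 10 genes passed (edgeR, FDR = 0.9999 for each; 0 at an unadjusted p under 0.05), and 0.00725% of all genes did. limma-voom and DESeq2 called 0 of the 10 as well. Among all 13795 genes, limma-voom called 0, and DESeq2 5 higher and 2 lower. The largest values were those of Tfrc (0.32 ± 0.43 SE), Trf (-0.29 ± 0.21) and Hamp (-0.25 ± 0.80), and the 95% intervals ran from -0.58 to 1.22, from -0.73 to 0.15 and from -1.91 to 1.40. That fit does not pair the libraries of a mouse. With the mouse as a block, Tfrc was at 0.24 (edgeR unadjusted p = 0.157, FDR = 0.726) and Hamp at -0.19 (unadjusted p = 0.186, FDR = 0.745).

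Trf was the only one of the 10 genes whose ratios did not overlap between the LNA groups, as was found for 1.71% of all genes. Its ratio was 1.11, 1.18, 1.18, 1.23 and 1.14 in GFP LNA mice 1, 2, 3, 8 and 9 and 0.979, 0.732, 0.998, 1.11 and 1.04 in SNORA73 LNA mice 4, 6, 10, 11 and 12. The lowest control ratio and the highest SNORA73 LNA ratio lay close together, in mice 1 and 11. With the mouse as a block the difference was -0.28 ± 0.11 SE (edgeR unadjusted p = 0.0211), and it failed the correction (FDR = 0.532).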

How the data were processed

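Poly(A)-selected total and polysome RNA of mouse liver was sequenced by the authors as 100 bp paired reads. Per the labels, the processing used fastp, Bowtie2, SAMtools and kallisto with the build GRCm38. Per the study's methods, transcript estimates were summed to genes with tximport, and the authors deposited these estimated counts per gene with no normalization. kallisto shares reads among similar transcripts, so values of near-identical copies are uncertain.

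Each of the 20 columns matched 1 label (0 without a sample). Counts were rounded, and symbols were matched by gene ID for 51903 of 53028 genes. A gene was tested if 4 or more libraries of a fit exceeded a CPM of 0.5. Tests were two-sided quasi-likelihood F tests (edgeR 4.0.16, R 4.3.3) on TMM-scaled libraries at a Benjamini-Hochberg FDR under 0.05 over all genes. Total and polysome RNA were fitted apart for the LNA comparisons, and all 20 libraries together for polysome against total RNA and for the interaction. SEs are the fold change divided by the root of the F statistic, and intervals use the degrees of freedom of the test. Correlations used log2(CPM + 0.5) and 100000 permutations.

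The members and lists were chosen with earlier results of these data known. Named genes were the 10 members and, in each comparison, up to 12 called genes of the iron lists with the largest change. Some genes that this rule names are not reported here. The study left out 1 unnamed mouse per group. All mice entered here, and the set without mice 9 and 10, which an earlier analysis of these data took for the study's, was an alternative. The other alternatives were limma-voom (limma 3.58.1), DESeq2 1.42.0, edgeR with the size factors of DESeq2, unscaled library totals, 2 other filters, mitochondrially encoded genes left out, a single fit, each mouse left out, and the mouse as a block. The block with 8 mice was added after seeing the data.

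The label number marks 1 mouse, which pairs its total and polysome libraries. Deviations from the group means correlated in every pair (r from 0.146 to 0.694), and 9 of 10 total libraries correlated best with the polysome library of their own mouse. No 2 libraries of an RNA correlated above 0.991. On simulated counts with 1 log2 unit of change, edgeR recovered 74.6% of 197 changed genes in total RNA, 49.7% of 197 in polysome RNA, 78.5% of 195 in polysome against total RNA and 35.2% of 199 for the interaction. False calls were 4, 10, 9 and 3. The simulated libraries held no effect of the mouse. They also held few changed genes, 195 of 13599 for polysome against total RNA. In the real data, 28.5% of genes were called higher and 26.9% lower there, so that recovery need not hold for them. Every LNA difference of the 10 genes was smaller than 1 log2 unit, so recovery at their size was not measured.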

Additional observations from a re-analysis of the deposited data

Results flagged for a closer look

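Among 40 groups of 5 libraries (10 genes, 2 RNAs, 2 LNAs), 7 held a sample whose gap to its nearest neighbour was more than 0.71 of the group's range. Chance alone flags about 1 in 20 groups. Of these 7, 3 belonged to SNORA73 LNA mouse 10, which was the highest of its group for Hamp in total RNA (883.7 CPM) and for Slc11a2 in total (43.48 CPM) and polysome RNA (31.75 CPM). The other 4 belonged to GFP LNA mouse 2, which was the highest of its group for Slc40a1 (122.3 CPM) and Aco1 (147.2 CPM) in total RNA and for Ftl1 in polysome RNA (2303 CPM), and the lowest for Slc11a2 in polysome RNA (10.78 CPM).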

How the results depend on the processing

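The number of the 10 genes called stayed at 0 in total RNA, in polysome RNA and for the interaction under every alternative run, and at 7 or 8 for polysome against total RNA, where the same 7 genes were called each time. With the mouse as a replicate block the counts were 8 for polysome against total RNA, adding Slc11a2, and 0 for the interaction, and the block changed no other call of the 10. Leaving out 1 mouse gave 7 to 8 calls for polysome against total RNA and 0 in the other comparisons.

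Signs changed only for values that had not passed a test. Without mice 9 and 10, log2 fold changes became -0.0506 for Slc11a2 and -0.32 for Hamp in total RNA, -0.26 and -0.31 in polysome RNA, and -0.0179 (Slc40a1, -0.0181 with the replicate block) and 0.0147 (Hamp) for the interaction. Library totals without TMM gave -0.0656 for Tfr2 and -0.12 for Aco1 in total RNA and -0.0259 for Slc11a2 in polysome RNA. Keeping genes with at least 1 count gave -0.00279 for Aco1 in total RNA, and limma-voom gave -0.00193 for Slc11a2 in polysome RNA.

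With 1 mouse left out, values crossing 0 ranged in total RNA from -0.11 to 0.023 (Fth1), -0.13 to 0.42 (Slc11a2), -0.0313 to 0.11 (Aco1), -0.11 to 0.94 (Hamp) and -0.10 to 0.0695 (Trf). In polysome RNA they ranged from -0.13 to 0.034 (Tfr2), -0.31 to 0.29 (Slc11a2), -0.10 to 0.0721 (Ireb2) and -0.12 to 0.66 (Hamp), and for the interaction from -0.19 to 0.016 (Fth1), -0.20 to 0.00287 (Tfr2), -0.0608 to 0.13 (Slc40a1) and -0.0271 to 0.18 (Ireb2). Values that kept their sign but moved by over 1.5 times ranged in total RNA from 0.0376 to 0.36 (Tfrc), 0.00831 to 0.12 (Tfr2) and -0.15 to -0.0696 (Ireb2), in polysome RNA from -0.26 to -0.014 (Fth1), 0.33 to 0.67 (Tfrc) and -0.16 to -0.0297 (Aco1), and for the interaction from -0.29 to -0.0662 (Ftl1), 0.19 to 0.42 (Tfrc), -0.18 to -0.0899 (Slc11a2), -0.16 to -0.0765 (Aco1) and -0.37 to -0.0146 (Hamp). Those of Slc40a1 in total and polysome RNA ranged from -0.52 to -0.21 and from -0.45 to -0.23, and that of Trf in polysome against total RNA from 0.0577 to 0.13. The correlation of Hamp with BMP targets ranged from 0.34 to 0.67. The correlation of Hamp with acute-phase genes ranged from -0.37 to 0.69 and that of Tfrc with Hamp from -0.54 to 0.15. The cause was not tested.

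Counts over all genes moved more than those of the 10. In total RNA, 4 genes were higher and 0 lower with all mice, 76 and 21 without mice 9 and 10, 10 and 3 with genes of at least 1 count, 2 and 0 with a CPM above 1 in every library or with library totals, and 49 and 26 by DESeq2. Leaving out mouse 9 alone gave 49 and 10, and leaving out any other mouse 1 to 2 higher and 0 to 1 lower. In polysome RNA, 2 were higher and 0 lower with all mice, 27 and 4 without mice 9 and 10, 66 and 6 with genes of at least 1 count, 29 and 2 with a CPM above 1 in every library, 0 and 0 with library totals, 242 and 75 in the single fit, and 231 and 50 by DESeq2. Leaving out 1 mouse gave 0 to 15 higher and 0 to 2 lower there. For the interaction the count was 1, and 7 by DESeq2 (5 higher, 2 lower) and 0 by limma-voom, the stricter filter, the 8 mice and their block. What depth limits was not tested.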
